A study of Mus musculus with 19 samples.

Results

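The genes described here encode the T cell receptor complex and other proteins that mark T cells, namely *Cd3d*, *Cd3e*, *Cd3g*, *Cd4*, *Cd8a*, *Cd8b1*, *Lck*, *Zap70*, *Cd5* and *Cd28*. They were taken by symbol. All 10 were found in each of the 3 deposited expression tables, out of 55740 genes listed in any of them. RNA-Seq had been performed on 19 mouse libraries. In the first experiment, 7 tissues of C57BL/6J wild type (WT) mice were profiled with 1 library each: brain, small intestine, liver, heart, the tibialis anterior (TA) muscle, and white and brown adipose. In the second, inguinal white adipose tissue (iWAT) and brown adipose tissue (BAT) were taken from male mice, WT or MCK-Musclin, at 5 months of age, which had been kept at 8 °C for 1 week, with 3 libraries for each tissue and genotype. MCK-Musclin mice carry the Musclin coding sequence (gene *Ostn*, a secreted muscle peptide) behind the muscle creatine kinase promoter, a promoter known for its activity in skeletal muscle. All 12 adipose libraries of this second experiment were cold exposed, so no cold effect can be read from them. Several founder lines were made, and which line gave these libraries is not given in the sources used here.

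T cells recognize antigen through a receptor of variable chains that cannot signal by themselves. The CD3 chains carry the signal into the cell, the co-receptor CD4 or CD8 binds the presenting molecule and brings the kinase LCK to the receptor, and ZAP70 then docks on the phosphorylated CD3 and zeta chains. CD28 gives the costimulatory signal, and CD5 dampens the signal of the receptor. In adipose tissue, T cells are part of the resident immune population. The inguinal fat pad of mice also surrounds a lymph node, which is rich in T and B cells.

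The 3 CD3 genes lie together on chromosome 9 (GRCm38), on a stretch of 40056 bases. *Cd3g* (chr9:44969572-44980431, minus strand) and *Cd3d* (chr9:44981786-44987339, plus strand) start 1355 bases apart and are read away from each other, and *Cd3e* (chr9:44998740-45009627, minus strand) follows. *Cd8b1* (chr6:71322788-71337494, plus strand) and *Cd8a* (chr6:71373427-71379173, plus strand), the chains of the CD8 co-receptor, lie 35932 bases apart on chromosome 6, which also holds *Cd4* (chr6:124864692-124888221, minus strand). *Lck* is at chr4:129548344-129573641 (minus strand), *Zap70* at chr1:36761798-36782818 (plus strand), *Cd5* at chr19:10717116-10739002 (minus strand) and *Cd28* at chr1:60716800-60773359 (plus strand). Exons of *Cd3e* overlap those of *Gm48719* on the opposite strand, and *Lck* overlaps *Mir8119*. Reads were aligned as unstranded, so reads of such pairs cannot be told apart.

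Of these genes, 7 had promoters in the RefSeq table of GRCm38.p6. The 250 bases before a start site are shown for *Cd3g* and *Cd3d*, which share the stretch between them, and for the kinases *Lck* and *Zap70*. The other promoters are not shown. Each is written 5′ to 3′ on the strand of its gene. Capitals mark letters used by families of factors known in T cells, searched on both strands, namely the ETS family (GGAAGT), the RUNX family (TGTGGT), the zinc finger family around GATA3 (AGATAA) and the TCF/LEF family (CTTTGA).
Cd3g, chr9:44980432-44980681, minus strand: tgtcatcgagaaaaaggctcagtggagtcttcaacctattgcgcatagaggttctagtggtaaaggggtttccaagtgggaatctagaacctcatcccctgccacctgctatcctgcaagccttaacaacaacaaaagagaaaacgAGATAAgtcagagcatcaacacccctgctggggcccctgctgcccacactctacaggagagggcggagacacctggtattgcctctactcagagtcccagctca
Cd3d, chr9:44981536-44981785, plus strand: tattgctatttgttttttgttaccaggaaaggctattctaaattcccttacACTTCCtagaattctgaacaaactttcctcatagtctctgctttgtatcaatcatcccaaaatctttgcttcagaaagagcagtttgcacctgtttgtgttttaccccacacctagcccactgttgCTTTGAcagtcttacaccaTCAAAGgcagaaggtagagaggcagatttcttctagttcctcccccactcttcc
Lck, chr4:129573642-129573891, minus strand: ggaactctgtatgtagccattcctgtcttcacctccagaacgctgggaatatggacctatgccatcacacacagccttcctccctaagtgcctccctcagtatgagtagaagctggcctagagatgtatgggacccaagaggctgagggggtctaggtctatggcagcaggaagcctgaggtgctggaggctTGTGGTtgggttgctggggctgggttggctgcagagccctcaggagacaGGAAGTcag
Zap70, chr1:36761548-36761797, plus strand: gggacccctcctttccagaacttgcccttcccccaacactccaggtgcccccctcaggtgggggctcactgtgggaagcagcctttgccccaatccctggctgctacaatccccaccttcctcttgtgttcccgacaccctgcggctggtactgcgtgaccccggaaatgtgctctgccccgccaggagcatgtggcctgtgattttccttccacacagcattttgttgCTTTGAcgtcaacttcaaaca
The 7 matched genes had 10 promoters in all. The ETS letters occurred in 6 of the 10, those of *Cd3d*, *Cd3e*, *Cd5*, *Lck* and *Zap70* (the last in the window of another of its start sites), against 19.7% of all 32851 promoters of this length. RUNX letters occurred in 2 of the 10, for *Lck* and, in that same other window, *Zap70* (14.1% of all promoters). TCF/LEF letters occurred in 2, for *Cd3d* and *Zap70* (13.8%), and GATA letters in 1, for *Cd3g* (9.99%). These matches describe the sequence and are not measured binding sites.

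Values are given as FPKM, fragments per kilobase of transcript scaled to the mapped total, a scale on which genes of different length can be compared. Summed FPKM per library was 393682 to 711437 in the 7 tissues, 364710 to 384104 in iWAT and 676362 to 720852 in BAT, and read totals are not given in the files. Of 21 tissue markers, 20 were highest in the tissue of their label. The exception was the atrial myosin gene *Myl7*, at 3.52 FPKM in heart and 3.54 in small intestine, while *Myh6* reached 14088 FPKM in heart. *Ostn* was 7.43 FPKM in TA muscle of WT mice. It was 0 in all 3 WT BAT libraries and 37.9, 31.6 and 30.3 FPKM in MCK-Musclin BAT. In iWAT it was 0, 0 and 0.225 FPKM in the WT libraries, in the order of their numbers, and 0, 5.17 and 4.21 in those of MCK-Musclin. The library labelled MCK-Musclin 1 of iWAT thus showed no *Ostn*, unlike the other two, whereas the RNA was present in all 3 MCK-Musclin BAT libraries. By Pearson correlation of log2(FPKM + 1), this library was closest to WT library 1 of iWAT (r = 0.983). Its correlation with MCK-Musclin libraries 2 and 3 was 0.976 and 0.979. The reason was not tested. The calls of the 10 genes, their ratios and the list counts in iWAT are given with and without it.

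Over the 7 WT tissues, the T cell genes were most abundant in small intestine. With 1 library per tissue these levels carry no replicate error and no test. The 10 genes summed to 56.2 FPKM in small intestine, 8.497 in white adipose, 8.35 in brain, 3.36 in liver, 2.91 in brown adipose, 1.58 in heart and 0.927 in TA muscle. Small intestine was the highest tissue for 7 of the 10 genes, and for the same number after rescaling to TPM or median-ratio scaling. In TA muscle 6 of the genes were listed at 0, in heart and brain 4 each, and in small intestine none.

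**Figure D1:**
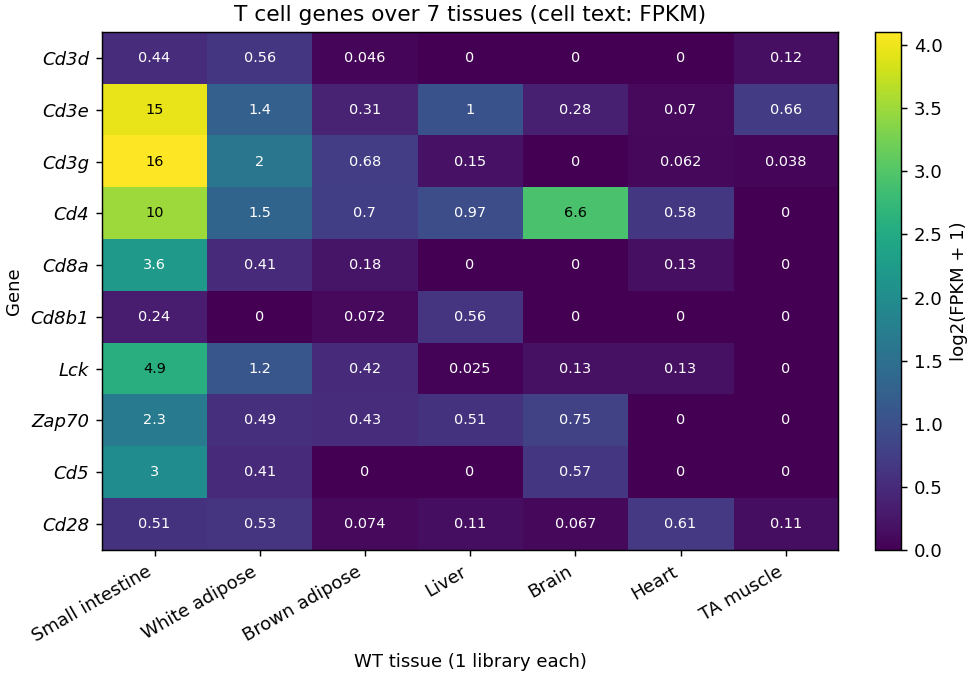
Levels of the 10 T cell genes (rows) in 7 WT mouse tissues (columns, 1 library each), with the FPKM printed in each cell and the colour giving log2(FPKM + 1). Small intestine holds the highest levels of 7 genes, and *Cd4* is also high in brain (6.56 FPKM).

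The CD3 chains did not go together in the small intestine. *Cd3e* was 14.6 FPKM there, against 1.40 in white adipose, 1.04 in liver, 0.656 in TA muscle, 0.308 in brown adipose, 0.278 in brain and 0.0700 in heart. *Cd3g* was 16.2 FPKM in small intestine and 2.04 in white adipose, with brown adipose at 0.675, liver at 0.155, heart at 0.0618, TA muscle at 0.0381 and brain at 0. *Cd3d*, in contrast, was only 0.436 FPKM in small intestine, below white adipose at 0.564, with TA muscle at 0.123, brown adipose at 0.0458 and the other tissues at 0. The ratio of *Cd3d* to *Cd3e* was therefore 0.0298 in small intestine and 0.403 in white adipose, while *Cd3g* to *Cd3e* was 1.11 and 1.46.

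The co-receptor genes also differed between tissues. *Cd8a* was 3.64 FPKM in small intestine, 0.411 in white adipose, 0.176 in brown adipose, 0.127 in heart and 0 in TA muscle, brain and liver. Its partner chain *Cd8b1* was 0.238 FPKM in small intestine, 0.558 in liver, 0.0717 in brown adipose and 0 elsewhere, a *Cd8b1* to *Cd8a* ratio of 0.0654 in small intestine. As background, many T cells within the gut epithelium are known to carry CD8 as pairs of alpha chains. *Cd4* was 10.3 FPKM in small intestine and 6.56 in brain, then 1.503 in white adipose, 0.965 in liver, 0.702 in brown adipose, 0.584 in heart and 0 in TA muscle. Brain thus stood second for *Cd4* while *Cd3g*, *Cd8a*, *Cd8b1* and *Cd3d* were listed at 0 there and *Cd3e* was 0.278. The T cell receptor constant genes *Trac* and *Trbc2* were 2.62 and 4.57 FPKM in the same brain library, against 4.76 and 6.08 in small intestine.

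Both kinase genes were also highest in small intestine. *Lck* was 4.94 FPKM in small intestine, 1.15 in white adipose, 0.424 in brown adipose, 0.135 in heart, 0.134 in brain, 0.0250 in liver and 0 in TA muscle. *Zap70* was 2.28 in small intestine and 0.746 in brain, with liver, white adipose and brown adipose at 0.515, 0.490 and 0.429 FPKM and heart and TA muscle at 0. *Cd5* was 3.01 FPKM in small intestine, 0.567 in brain and 0.408 in white adipose, and was listed at 0 in the other tissues. *Cd28* stayed under 1 FPKM everywhere, from 0.0670 in brain to 0.606 in heart, with white adipose at 0.527 and small intestine at 0.511. The order of such low values moved with the scaling, since white adipose came first for *Cd28* in TPM.

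The genes whose levels followed *Cd3e* most closely over the 7 tissues, by Pearson correlation of log2(FPKM + 1) among 14691 genes, were *Dnmbp* (r = 0.996), *Ddx39* (0.992), *Tradd* (0.989), *Tfap4* (0.989) and *H2-M2* (0.988). Among the other T cell genes the correlation with *Cd3e* was 0.952 for *Cd8a*, 0.950 for *Cd3g*, 0.924 for *Lck*, 0.905 for *Cd5* and 0.855 for *Zap70*, and lower for *Cd3d* (0.684), *Cd4* (0.654), *Cd28* (0.402) and *Cd8b1* (0.386). For *Cd4* the closest genes were *Crkl* (0.996), *Acvr2a* (0.992), *Hip1r* (0.989), *Tmtc2* (0.984) and *Ppp6r1* (0.984). These are descriptions over 7 libraries, and small intestine was the highest tissue for each of the 10 genes named as closest to *Cd3e* or *Cd4*.

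In iWAT of cold-exposed mice, all 10 T cell genes had a higher mean log2 level in MCK-Musclin than in WT libraries, as did 61.3% of all genes tested. With limma on log2(FPKM + 1), fold changes on that scale ran from 0.38 (*Cd28*) to 0.89 (*Zap70*), with a median of 0.61 against 0.06 over all 12197 genes tested. The study's cutoff asks for both an unadjusted p under 0.05 and a change of more than 0.5 on the log2 scale. The study applied this cutoff to DESeq2 tests, and here it was applied to the limma fit. In that fit it called 6 of the 10 genes higher and none lower, where 5.04% of all genes tested were called higher and 0.902% lower. Every MCK-Musclin library was above every WT library for 9 of the 10 genes, against 17.9% of all genes. After Benjamini-Hochberg adjustment, none of the 10 and none of the 12197 genes had an adjusted p under 0.05 in limma, although 2012 genes (16.5%), 9 of the 10 among them, had an unadjusted p under 0.05. Per the study's methods statement, libraries of a group came from separate animals. In whole tissue, more T cells and more RNA of these genes per cell cannot be told apart.

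**Figure D2:**
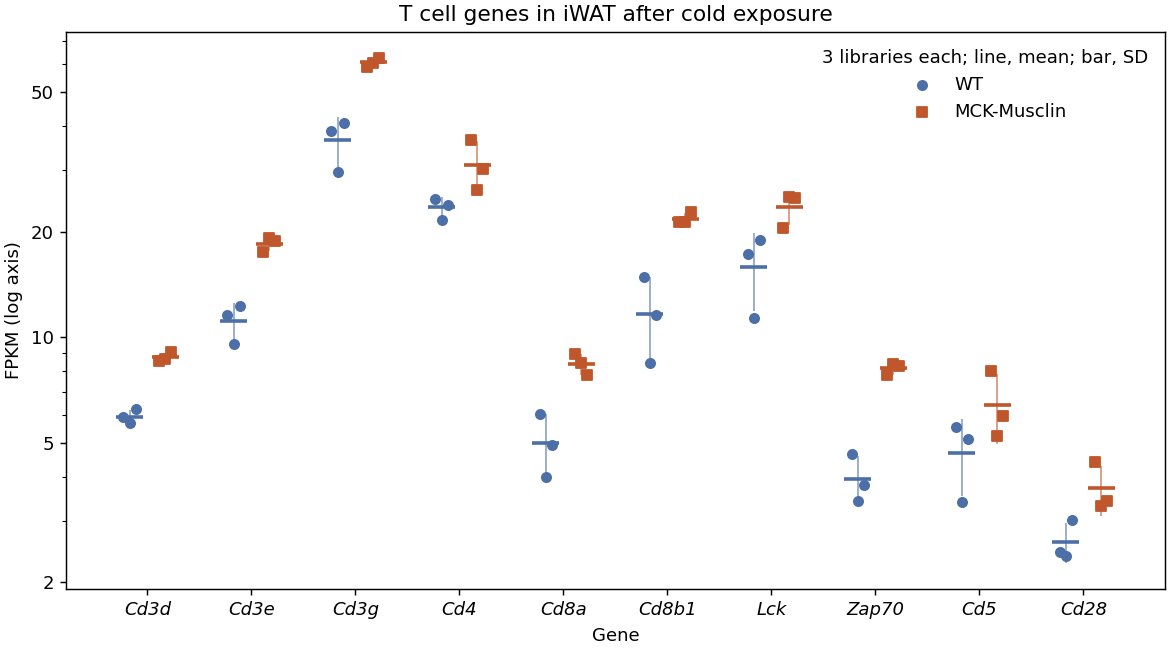
FPKM (log axis) of the 10 T cell genes in iWAT of cold-exposed WT (circles) and MCK-Musclin (squares) mice, 3 libraries each, with the group mean as a line and the SD as a bar. The groups overlap for *Cd5* alone.

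The CD3 genes were close between libraries of a group. *Cd3e* was 11.6, 9.57 and 12.3 FPKM in WT (libraries 1 to 3 in order, here and for the genes that follow) and 17.5, 19.2 and 18.8 in MCK-Musclin. *Cd3g*, the most abundant of the 10 genes in iWAT, was 38.8, 29.6 and 40.9 in WT and 59.2, 60.4 and 62.8 in MCK-Musclin. *Cd3d* was 5.92, 5.68 and 6.23 in WT and 8.54, 8.66 and 9.08 in MCK-Musclin. For all 3 genes the groups were apart, and the MCK-Musclin libraries lay within a narrow range. The log2 fold change was 0.69 ± 0.11 (SE) for *Cd3e* and 0.74 ± 0.13 for *Cd3g*, both with a limma adjusted p of 0.143. For *Cd3d* it was 0.49 ± 0.094 (adjusted p = 0.143), just under the cutoff, which it passed without MCK-Musclin library 1 (0.51) or without WT library 3 (0.52). *Cd3d* also passed with 0.1 FPKM added in place of 1 (0.55) and with libraries centred on adipocyte markers (0.68). In the remaining 11 of 15 alternatives its call did not change. The iWAT ratios of *Cd3d* to *Cd3e* were 0.451 to 0.594 and those of *Cd3g* to *Cd3e* 3.09 to 3.38 over the 6 libraries.

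The CD8 genes stood apart more than *Cd4*. *Cd8b1* was 14.9, 8.44 and 11.6 FPKM in WT and 21.2, 21.3 and 22.8 in MCK-Musclin, or 0.88 ± 0.18 as a log2 fold change (adjusted p = 0.143 in limma). *Cd8a* was 6.06, 3.9997 and 4.93 in WT and 8.97, 8.44 and 7.80 in MCK-Musclin, or 0.66 ± 0.14 as a log2 fold change (adjusted p = 0.148). For both chains the lowest WT value was in library 2. *Cd4* was 24.8, 21.7 and 23.9 in WT and 36.6, 26.3 and 30.1 in MCK-Musclin, with the highest value in the library that showed no *Ostn*. Its log2 fold change of 0.38 ± 0.13 (adjusted p = 0.231) missed the cutoff on size, and was 0.26 without that library.

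Set against each other within a library, *Cd4* was 4.09 to 5.42 times *Cd8a* in WT and 3.12 to 4.08 times in MCK-Musclin iWAT. The ranges did not overlap, with a log2 difference of -0.38 (-0.45 without MCK-Musclin library 1), but the exact two-sided permutation test gave p = 0.1, the smallest that 3 against 3 libraries allow, and 0.533 after adjustment over 8 ratios. With 0.1 FPKM added to both genes the ranges overlapped (exact p = 0.2). The *Cd8b1* to *Cd8a* ratio was 2.11 to 2.45 in WT and 2.37 to 2.93 in MCK-Musclin, a log2 difference of 0.17 (exact permutation p = 0.2) and 0.24 without that library. *Cd4* to *Cd3e* was 1.95 to 2.26 and 1.37 to 2.09, a log2 difference of -0.34 (exact permutation p = 0.2) and -0.51 without it. No ratio could pass a threshold of 0.05 with 3 against 3 libraries.

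The kinase genes behaved unalike in their spread. *Zap70* was 4.64, 3.42 and 3.78 FPKM in WT and 7.79, 8.41 and 8.26 in MCK-Musclin, the largest log2 fold change of the 10 genes at 0.89 ± 0.12 (95% confidence interval 0.61 to 1.18, limma adjusted p = 0.143). *Lck* was 17.3, 11.3 and 18.96 in WT and 20.5, 25.0 and 24.9 in MCK-Musclin. Its groups were close, with WT library 3 just under MCK-Musclin library 1, and the log2 fold change was 0.56 ± 0.19 (adjusted p = 0.219). The call for *Lck* was lost without WT library 2 (0.35), without MCK-Musclin library 2 (0.51, unadjusted p in limma 0.0580) or 3 (0.52, 0.0607), and under median-ratio scaling (0.49).

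Neither regulator of the signal passed the cutoff. *Cd5* was 5.55, 3.38 and 5.13 FPKM in WT and 8.03, 5.22 and 5.97 in MCK-Musclin, the single gene of the 10 whose groups overlapped, at 0.38 ± 0.20 on the log2 scale with a 95% confidence interval from -0.08 to 0.85 (limma adjusted p = 0.380). *Cd28* was 2.44, 2.38 and 3.01 in WT and 4.396, 3.30 and 3.42 in MCK-Musclin (0.38 ± 0.14, adjusted p = 0.247). For *Cd4*, *Cd5* and *Cd28* alike, MCK-Musclin library 1 was the highest of all 6. Without it their log2 fold changes were 0.26, 0.23 and 0.28, whereas *Zap70* (0.92), *Cd8b1* (0.90), *Cd3g* (0.75), *Cd3e* (0.73), *Lck* (0.65) and *Cd8a* (0.62) kept their calls and 7 of the 10 genes were then called.

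**Figure D3:**
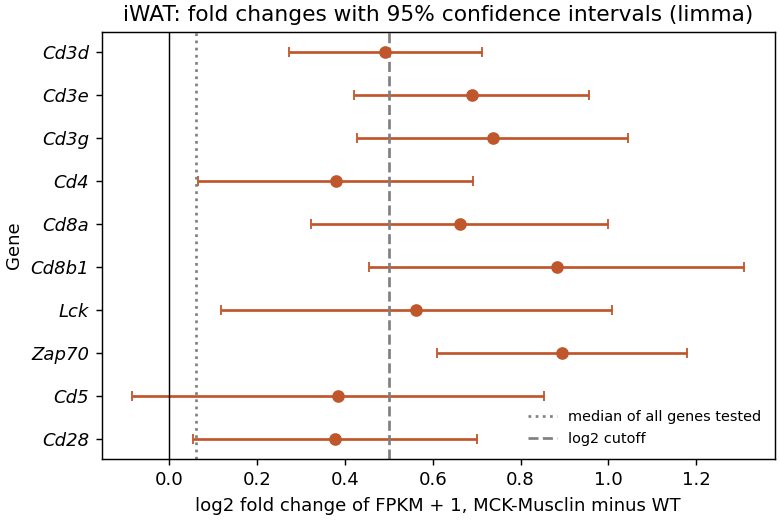
Log2 fold change of FPKM + 1 (horizontal axis, MCK-Musclin minus WT) of the 10 genes in iWAT, as points with 95% confidence intervals from limma, with the median of all genes (0.06, dotted) and the cutoff (0.5, dashed). The interval of *Cd5* alone reaches below 0, and *Cd3d* lies just under the cutoff.

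Other genes of the T cell receptor pathway were higher as well. Of the receptor chains, *Cd247*, the zeta chain, was 11.3, 9.35 and 10.5 FPKM in WT and 14.3, 18.7 and 14.9 in MCK-Musclin iWAT (log2 fold change 0.57 ± 0.13, limma adjusted p = 0.148), and its exons overlap *Gm16565* and *Pou2f1*. Of the 8 listed chain and constant genes, *Cd247* was the 1 found by symbol in iWAT, so the constant genes could not be tested there. Of 18 proximal signaling genes, 17 passed the filter on low values, and their median log2 fold change was 0.68. Of these, 11 were called higher and none lower, against 5.04% and 0.902% of all genes tested. Among those called higher was the adaptor *Grap2* (mean FPKM 8.96 in WT and 18.7 in MCK-Musclin, 0.99 ± 0.10, limma adjusted p = 0.0912). Another was the adaptor *Lat* (mean FPKM 20.1 in WT and 35.3 in MCK-Musclin, 0.79). The phosphatase gene *Ptprc*, shared by nearly all leukocytes, was in the same list, at 39.3 to 80.8 FPKM in WT and 86.5 to 100.1 in MCK-Musclin. *Cd3e* relative to *Ptprc* was 0.144 to 0.249 and 0.188 to 0.221 (exact permutation p = 1), a log2 difference of -0.02, or -0.01 without MCK-Musclin library 1.

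Among 12 T cell surface and costimulation genes, 11 were tested and 8 were called higher, with a median of 0.59, where 5.04% of all genes were called higher. Examples follow with their mean FPKM in WT and in MCK-Musclin and their log2 fold change. They were the costimulatory receptor *Cd27* (19.1 and 33.3, 0.78), the early activation antigen *Cd69* (3.997 and 7.52, 0.76) and *Cd6* (4.98 and 8.24, 0.65), a relative of *Cd5*. Of 12 transcription factor and homing genes, all tested, 10 were higher by their mean log2 level. For 1 of the 12, every MCK-Musclin library was below every WT library. The median was 0.54, and 7 were called higher and none lower. Among those called higher were the factors *Lef1* (mean FPKM 7.17 in WT and 12.6 in MCK-Musclin, 0.75) and *Tcf7* (27.4 and 43.0, 0.70), known from naive T cells. *Foxp3*, the factor of regulatory T cells, was 2.65 FPKM in WT and 2.60 in MCK-Musclin (-0.05, adjusted p = 0.927). *Foxp3* was picked out after its values were seen. Of 11 cytotoxic and natural killer genes, 9 were tested and 3 were called higher (*Eomes*, 0.69, *Klrd1*, 0.61, and *Gzmb*, 0.59), with a median of 0.48. Of the genes named here, *Lat*, *Cd27*, *Lef1* and *Eomes* share exon sequence with *Mir7058*, *Mir8113*, *Gm43352* and *Gm33460*. Without the MCK-Musclin library that showed no *Ostn*, 10 of the 17 signaling genes, 7 of the 11 surface genes, 4 of the 12 transcription factor and homing genes and 2 of the 9 cytotoxic genes were called higher, where 5.74% of all genes were.

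**Figure D4:**
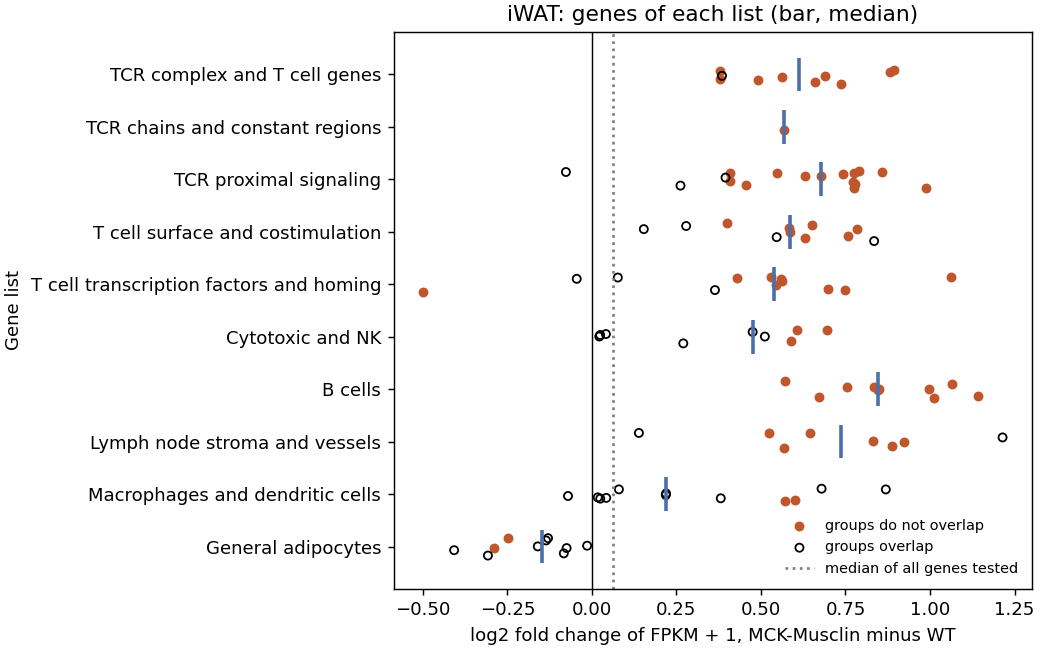
Log2 fold change of FPKM + 1 in iWAT (horizontal axis, MCK-Musclin minus WT) of the genes tested in each list (rows), filled where the libraries of the groups do not overlap and open where they do, with the list median as a bar and the median of all genes dotted. B cell genes are all above 0 with groups apart, and adipocyte genes all lie below 0.

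Markers of B cells and of lymph node stroma and vessels were higher in MCK-Musclin iWAT as well. The sums did not run in parallel over the WT libraries. In WT libraries 1 to 3 the 10 T cell genes summed to 132, 99.5 and 131 FPKM. The B cell markers summed to 315, 189 and 163 FPKM there, and the lymph node genes to 388, 209 and 200. All 10 B cell markers were called higher, with groups apart and a median log2 fold change of 0.85, and their summed level was 163 to 315 FPKM in WT and 357 to 464 in MCK-Musclin. *Cd79a*, a chain of the B cell receptor, was 135, 81.7 and 66.9 FPKM in WT and 151, 204 and 224 in MCK-Musclin (1.06 ± 0.27, limma adjusted p = 0.156), and the IgE receptor *Fcer2a* (1.01) was alike. Of 8 tested genes of lymph node stroma and vessels, 7 were called higher, with a median of 0.74 and a summed level of 200 to 388 FPKM in WT and 421 to 644 in MCK-Musclin. *Glycam1*, a ligand made by lymph node vessels, was 7.74, 9.35 and 9.96 FPKM in WT and 18.1, 14.9 and 17.4 in MCK-Musclin (0.83 ± 0.13, adjusted p = 0.143), and it was 0 in all 7 tissues, white adipose included, and in all 6 BAT libraries. The chemokine *Ccl19* (0.92) and the cytokine *Ltb* (0.89) were higher too. Without MCK-Musclin library 1, again 10 B cell and 7 lymph node genes were called higher. The part of these cells in the T cell result was not tested.

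*Cd3e* relative to *Cd79a* was 0.0859 to 0.183 in WT and 0.0840 to 0.116 in MCK-Musclin iWAT, a log2 difference of -0.34 (exact permutation p = 0.4). This difference was -0.47 without MCK-Musclin library 1, -0.59 without WT library 1 and -0.05 without WT library 3. Of 12 macrophage and dendritic cell markers, 3 were called higher with a median of 0.22, among them *Itgax* (0.60) and *Flt3* (0.57), both used by dendritic cells, and their summed level overlapped between the groups at 215 to 241 and 220 to 336 FPKM. Without MCK-Musclin library 1, 2 were called and the median was 0.12. None of 10 adipocyte markers was called with or without that library, all 10 were lower in MCK-Musclin by their mean, and the median was -0.15, with *Pnpla2*, the triglyceride lipase gene, at -0.29 (adjusted p = 0.279) and the fatty acid transporter *Cd36* at -0.25 (0.306). Centring each library on these adipocyte markers brought the called T cell genes from 6 to 10. It also brought the genes called higher among all 12197 tested from 615 to 1675.

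**Figure D5:**
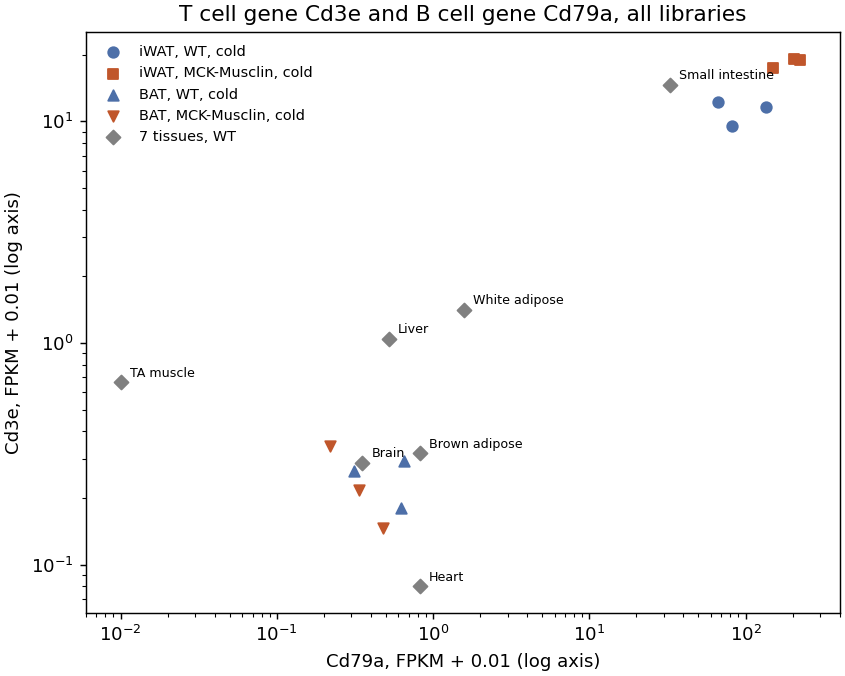
*Cd3e* (vertical axis) against *Cd79a* (horizontal axis), as FPKM + 0.01 on log axes, in all 19 libraries, which come from 3 tables scaled separately. The 6 iWAT libraries and small intestine lie at the upper right, with *Cd3e* from 9.57 to 19.2 FPKM, and the 6 BAT libraries lie with brain, brown adipose and heart at the lower left, with *Cd3e* under 1 FPKM.

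Levels in cold-exposed WT iWAT were far above those in the white adipose library of the tissue survey. The tables were made separately, the fat depot and the age of the survey mice are not given in the sources used here, and the survey has 1 library, so the values stand side by side without a test. *Cd3g* was 2.04 FPKM in the white adipose library and 36.4 ± 6.01 (SD, n = 3) in WT iWAT, *Cd4* 1.503 and 23.4 ± 1.61, *Lck* 1.15 and 15.9 ± 3.995 and *Cd28* 0.527 and 2.61 ± 0.347. The quotient ran from 4.95 for *Cd28* to 17.8 for *Cd3g*, and *Cd8b1*, at 11.6 ± 3.21 FPKM in WT iWAT, was listed at 0 in the white adipose library.

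In BAT the T cell genes were barely detected. All 60 values were under 1 FPKM, 11 were 0, and 4 of the 10 genes were above 0 in all 6 libraries. *Cd3e* was 0.283, 0.254 and 0.170 FPKM in WT and 0.333, 0.207 and 0.136 in MCK-Musclin. *Cd4*, which held the highest value, was 0.275, 0.257 and 0.153 in WT and 0.545, 0.276 and 0.0632 in MCK-Musclin. *Cd3g* was 0.129, 0 and 0.244 in WT and 0.217, 0.249 and 0.481 in MCK-Musclin. The groups overlapped for all 3. None of the 10 genes reached the mean of 1 FPKM needed for the test, while 10893 other genes did, of which 1.85% were called higher and 2.15% lower at a log2 cutoff of 0.3.

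Without the filter on low values, all 10 genes could be fitted in BAT, none was called, none had an unadjusted p under 0.05 in limma (4.4% of the 23961 genes then fitted did), 5 were higher by their mean log2 level (49.5% of those genes were), and the median log2 fold change was 0.0057. For *Cd3e* it was -0.01 with a 95% confidence interval of -0.19 to 0.17, and for *Cd3g*, the largest of the 10, it was 0.23 with an interval of -0.04 to 0.50 (limma adjusted p = 0.908). With a pseudocount of 0.1, chosen after seeing the data, *Cd3g* was 1.01 with an interval of -0.25 to 2.27 (limma adjusted p = 0.899). Since 1 FPKM is added before the logarithm, a change at these levels is strongly compressed, and a difference between the genotypes was not detectable at such low values. The B cell markers summed to 0.488 to 1.16 FPKM in WT and 0.396 to 0.626 in MCK-Musclin BAT, and none passed the filter either. The ratio of *Cd3e* to *Ptprc* was 0.133 to 0.340 in WT and 0.133 to 0.331 in MCK-Musclin BAT (exact permutation p = 0.7), that of *Cd4* to *Cd3e* 0.902 to 1.01 and 0.463 to 1.64 (exact permutation p = 1), and that of *Cd3e* to *Cd79a* 0.276 to 0.843 and 0.293 to 1.58 (exact permutation p = 0.6). Of 5 tested macrophage and dendritic cell genes, *Csf1r* alone was called, at 2.04 and 3.66 FPKM (0.61, limma adjusted p = 0.880), and its exons overlap *Hmgxb3*. Whether the genotype difference of the T cell genes itself differed between iWAT and BAT was not tested.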

How the data were processed

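The deposited files were 3 tables of FPKM per gene, for the 7 tissues (55573 genes after 287 repeated lines were dropped), iWAT (13756) and BAT (55487). Per the labels and the methods of the study, the authors made libraries from poly(A) RNA with a SMART kit, trimmed reads with fastp, aligned them to GRCm38 with HISAT2 (2.1.0) and estimated FPKM with StringTie. RNA of white fat was extracted with a column kit and that of other tissues with TRIzol. The iWAT table also holds the authors' fold changes, p-values and group means, which were not used.

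Read totals are unknown. Each adipose table was tested on its own with limma (3.58.1, R 4.3.3; lmFit, eBayes with trend) on log2(FPKM + 1), which understates changes of low genes, over genes with a mean of at least 1 FPKM in its 6 libraries, with Benjamini-Hochberg adjustment over all of them. The script was tested on simulated data. Calls used an unadjusted p under 0.05 and the log2 cutoffs of the study (0.5 in iWAT, 0.3 in BAT). Ratios were compared by exact two-sided permutation tests of log2 ratios. Positions come from GENCODE and promoters from RefSeq.

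The T cell genes and all lists were chosen with earlier results of these data known, so list counts are descriptions. Beside the 10 genes, the text names *Ostn*, tissue markers, up to 3 genes per list with the largest change and groups apart (otherwise up to 2 of the highest mean) and the 5 genes most like *Cd3e* and *Cd4*. *Trac*, *Trbc2*, *Ptprc* and *Foxp3* were added after their values were seen. Some genes that this rule names are not reported here. Alternatives changed the pseudocount, filter, scaling, variance estimate, block and libraries.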

Additional observations from a re-analysis of the deposited data

How the results depend on the processing

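Of 149 refits of single T cell genes in iWAT, 138 stayed on the same side of the cutoff, 7 gained a call, 4 lost one (all *Lck*) and none changed direction, with log2 fold changes from 0.21 to 1.08. The number called, 6, was 5 to 7 under the other alternatives, including 5 to 7 when libraries were left out in turn. It became 10 when libraries were centred on the adipocyte markers, a setting that moves the median of all genes from 0.06 to 0.25. With that centring 1675 of all 12197 genes were called higher, against 615 in the main analysis. Without WT replicate 1, 2 of the 10 T cell genes had a limma adjusted p under 0.05, among 86 of all 12197 genes. With adipocyte centring 6 of the 10 did, among 560 of all genes. Of all calls, 84.8% were higher in the main analysis, 70.0% under median-ratio scaling, 75.1% in TPM and 98.4% with adipocyte centring. With the replicate number as a block, 6 genes were called in iWAT. Same-numbered libraries deviated together only weakly (r = 0.235, 0.0615 and 0.107 in iWAT and -0.0951, -0.00464 and 0.00937 in BAT), and MCK-Musclin library 2 of iWAT correlated better with WT library 3 (0.0702), so the numbers were not taken as pairs. In BAT the genes could be fitted only without the filter, with 0 called, also with a pseudocount of 0.1 (chosen after seeing the data, 6 of 10 then higher), and the remaining settings, the block included, had none of them to test. Some ratio differences changed sign when 1 library was left out, and not only those near 0. With all libraries, 2 of them in BAT were 0.51 (*Cd3e* to *Cd79a*) and -0.27 (*Cd3e* to *Ptprc*). For *Cd3e* to *Ptprc* in iWAT the log2 difference was 0.1033 or 0.1198 when WT library 2 or 3 was left out and 0.0384 when MCK-Musclin library 3 was (range -0.2773 to 0.1198), and in BAT it was 0.02626 without WT library 2 (-0.6785 to 0.02626). In BAT, *Cd4* to *Cd3e* was -0.2903 and -0.1428 without MCK-Musclin libraries 1 and 2 (-0.2903 to 0.6197), and *Cd3e* to *Cd79a* was -0.1102 without MCK-Musclin library 1 (-0.1102 to 1.105). Read totals are unknown, so low values carry no counting interval.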
